A study of Bos taurus with 8 samples.

Results

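The genes described here make cholesterol and fatty acids, control that synthesis or move sterols across membranes. A list of 38 genes was matched by gene name in the scRNA-seq tables, which list 21861 genes, and 37 were found. CH25H was not matched by name and is not analysed here. Of the matched genes, 18 encode enzymes of sterol synthesis, 5 control it, 8 belong to fatty acid synthesis and 6 to sterol transport and the liver X receptors.

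Blood of 4 female lactating Holstein cattle, 2 years old, was pooled and divided into 4 parts. The first part was left without LPS (no LPS), and the others received LPS, a component of the bacterial outer membrane, at 2 µg/ml and 37 °C for 2 h, 4 h or 8 h. Peripheral blood mononuclear cells (PBMCs) were then isolated, and 1 library per part was made for scRNA-seq and 1 for scATAC-seq. With 1 library per treatment, animals pooled and no incubation time given for the no LPS part, LPS, time in incubation and the library itself cannot be told apart, and no test was possible.

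Cells build cholesterol from acetyl-CoA through mevalonate, squalene and lanosterol. When sterols in the endoplasmic reticulum run low, SCAP carries the membrane-bound factors SREBP1 and SREBP2 (genes SREBF1 and SREBF2) to the Golgi, where they are cleaved and then switch on the enzymes of the pathway, while INSIG proteins hold SCAP back when sterols are plentiful. Oxidised sterols act on the liver X receptors NR1H3 and NR1H2, which switch on the export pumps ABCA1 and ABCG1. Lymphocytes raise lipid synthesis when they grow and divide, and macrophages are known for adjusting sterol synthesis and export when they sense microbes.

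After the limits on cells there were 7821, 9865, 7387 and 3411 cells (no LPS, 2 h, 4 h and 8 h, the order kept throughout), with 16657841 to 47875879 UMIs, or molecules counted, per library. Pairs of scRNA-seq libraries shared at most 24 barcodes. Cells were assigned to a class by a gate, a UMI of exactly 1 of CD3E (T-gated), MS4A1 (B-gated), NCR1 (NK-gated) and CD14 (monocyte-gated). The gate gave 3482, 4937, 3857 and 1550 T-gated cells, 1692, 2392, 1894 and 663 B-gated cells, 796, 382, 151 and 170 monocyte-gated cells and between 38 and 97 NK-gated cells. No doublet caller was run, and cells with UMIs of several gate genes (414 to 699 per library) were kept out of the classes. A second marker of the class was present in 85.8% to 88.7% of the T-gated cells and 87.5% to 95.5% of the B-gated cells. It was present in 95.5%, 82.5%, 75.5% and 90.6% of the monocyte-gated cells.

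Levels are shares of the summed UMIs scaled to 1000000 (CPM), and a fold is a ratio of CPM between libraries. Bracketed ranges are 95% intervals, exact Poisson for a level and exact binomial for a fold, and cover counting error only. A gene was called higher or lower at a fold of at least 1.5 in either direction when it had at least 50 UMIs over the compared libraries. In sums over cells, fewer cells of a type and less RNA per cell cannot be told apart.

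Over all cells, the 18 sterol synthesis genes together were at 496 CPM without LPS, 592 CPM at 2 h, 631 CPM at 4 h and 554 CPM at 8 h. The sum was 1.19-fold (1.17 to 1.22) higher at 2 h than without LPS, 1.27-fold (1.25 to 1.30) higher at 4 h and 1.12-fold (1.09 to 1.14) higher at 8 h. The 4 h library was thus the highest, and the intervals of the 4 levels did not overlap. The 8 fatty acid synthesis genes followed another course. Their sum was 74.5, 75.7, 82.2 and 100 CPM, and the 8 h library stood 1.35-fold (1.27 to 1.43) above no LPS.

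Of the 37 genes, 36 had enough UMIs over all cells for the 2 h comparison. Of these, 2 were higher (SQLE and ABCG1) beside 4.76% of all genes tested, and 2 were lower (PMVK and NR1H3) beside 10.4%. At 4 h, 4 of 35 were higher (HMGCS1, SQLE, SCD and ABCG1) beside 7.31% of all genes, and PMVK and NR1H3 were again lower beside 13.1%. At 8 h, 5 of 35 were higher (LSS, TM7SF2, FASN, SCD and FADS1) beside 8.51%, and PMVK and NR1H3 were lower beside 8.87%. The median log2 fold of the sterol synthesis genes was 0.08, 0.29 and 0.19 at 2 h, 4 h and 8 h, against −0.04, 0.03 and 0.12 for all genes tested. For the fatty acid synthesis genes it was 0.04, 0.28 and 0.40.

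The share of UMIs from each class moved between the libraries. B-gated cells gave 20.4%, 25.7%, 28.5% and 23.6% of the UMIs, and monocyte-gated cells gave 18.01%, 7.98%, 3.14% and 5.14%. With class shares held at those without LPS, SQLE was at a log2 fold of 0.44 at 2 h and 0.39 at 4 h and no longer passed 1.5-fold, where its pooled values were 0.60 and 0.62. HMGCS1 at 4 h still passed it, at 0.59 in place of 0.77. Monocyte-gated cells gave 30.1%, 7.52%, 4.27% and 16.7% of the PMVK UMIs. The PMVK fold was 0.749 and 0.848 in T-gated cells and 1.22 and 1.18 in B-gated cells at 2 h and 4 h. At 8 h it was 0.610 (0.308 to 1.14) in T-gated cells. The classes were therefore examined one by one.

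**Figure D1:**
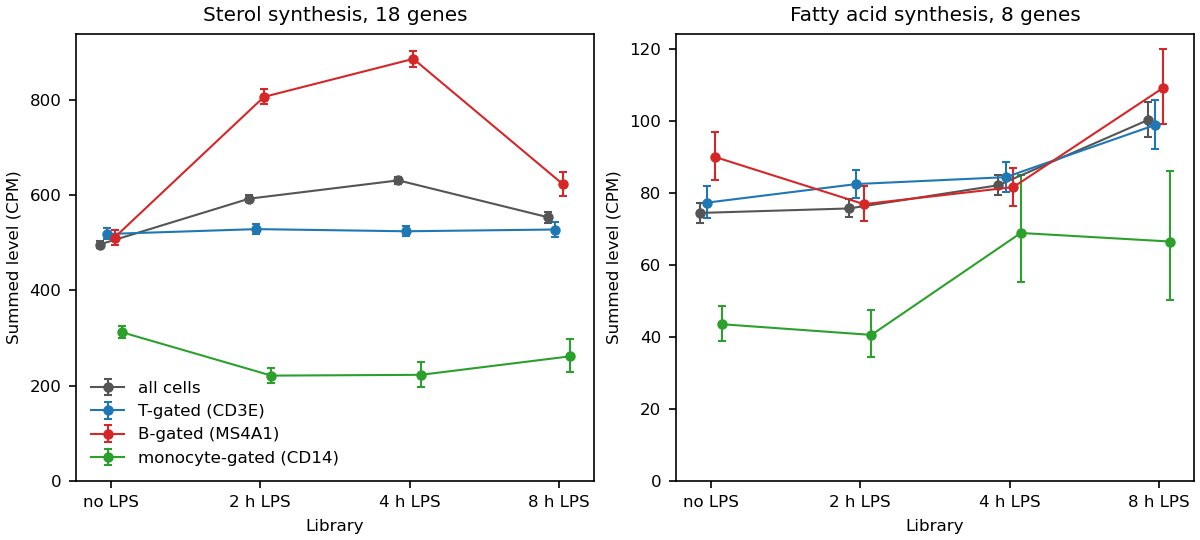
Summed level of the sterol synthesis genes (left) and the fatty acid synthesis genes (right) in CPM, in the 4 libraries, over all cells and in the T-gated, B-gated and monocyte-gated cells. Points are single libraries and bars are 95% Poisson counting intervals. The B-gated sterol sum was highest at 4 h, at 886 CPM, while the T-gated sum stayed between 518 and 529 CPM.

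In B-gated cells the sterol synthesis sum was 511 CPM without LPS, 806 CPM at 2 h, 886 CPM at 4 h and 623 CPM at 8 h. It was 1.58-fold (1.52 to 1.64), 1.73-fold (1.67 to 1.80) and 1.22-fold (1.16 to 1.28) higher than without LPS. In T-gated cells the same sum was 518, 529, 524 and 528 CPM, and its largest fold was 1.02 (0.99 to 1.05 at 2 h). The classes had similar levels without LPS, and the B-gated level was above the T-gated one at each time with LPS, with counting intervals that did not overlap. NK-gated cells had only 116 to 180 UMIs of these genes in a library, with sums of 402, 338, 347 and 541 CPM, and none of the sterol synthesis genes reached 50 UMIs there in any comparison.

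Of the 17 sterol synthesis genes with enough UMIs in B-gated cells at 2 h, 7 were higher than without LPS, beside 7.89% of all genes, and EBP was lower, beside 15%. At 4 h, 8 of 17 were higher, beside 9.04% of all genes, and 0 were lower, beside 17.4%. At 8 h, 1 of 14 was higher, beside 7.18%, and 0 were lower, beside 7.15%. The median log2 fold was 0.34, 0.56 and 0.27 for the sterol synthesis genes, against −0.11, −0.08 and 0.01 for all genes. In T-gated cells 0 of 18 were higher at each time, beside 2.79%, 4.56% and 4.70% of all genes. There, 0 were lower at 2 h, TM7SF2 was lower at 4 h and PMVK at 8 h, beside 4.12%, 5.86% and 2.80%.

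The genes with the highest folds in B-gated cells lie at early and later steps of the pathway, though not at every step. HMGCS1 (ENSBTAG00000011839), which makes HMG-CoA at the entry to the mevalonate steps, was at 44.0, 109, 127 and 68.2 CPM. This was 2.49-fold (2.21 to 2.81) above no LPS at 2 h, 2.90-fold (2.58 to 3.27) at 4 h and 1.55-fold (1.32 to 1.83) at 8 h. In T-gated cells HMGCS1 was at 40.8, 47.6, 53.8 and 44.7 CPM, with a highest fold of 1.32 (1.19 to 1.46) at 4 h. All LPS libraries thus lay above no LPS in B-gated cells, the 4 h library farthest.

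SQLE (ENSBTAG00000005498), squalene epoxidase, catalyses the first oxygen-dependent step. It was at 29.9, 71.0, 71.4 and 44.5 CPM in B-gated cells, 2.37-fold (2.05 to 2.75) above no LPS at 2 h, 2.38-fold (2.06 to 2.77) at 4 h and 1.49-fold (1.22 to 1.82) at 8 h. In T-gated cells it was at 43.6, 49.3, 45.4 and 47.7 CPM. Without LPS the T-gated level was the higher one, and at 2 h and 4 h the B-gated level was.

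MSMO1 (ENSBTAG00000003068), a methylsterol oxidase acting after lanosterol, was at 47.5, 94.5, 112 and 60.1 CPM in B-gated cells. The folds were 1.99 (1.77 to 2.24), 2.36 (2.10 to 2.65) and 1.26 (1.07 to 1.49). Its T-gated level stayed between 71.0 and 77.6 CPM. MSMO1, SQLE and CYP51A1 were alike in this: each was lower in B-gated than in T-gated cells without LPS and at 8 h and higher at 2 h and 4 h.

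IDI1 (ENSBTAG00000004075), which interconverts the isoprenoid building blocks, was at 51.4, 101, 107 and 61.6 CPM in B-gated cells, 1.96-fold (1.75 to 2.20) and 2.08-fold (1.85 to 2.33) above no LPS at 2 h and 4 h. CYP51A1 (ENSBTAG00000001992), the lanosterol demethylase, was at 48.3, 87.3, 91.4 and 54.7 CPM, with folds of 1.81 (1.61 to 2.04) and 1.89 (1.68 to 2.13). Both were near their no LPS level again at 8 h, with folds of 1.199 (1.02 to 1.41) and 1.13 (0.95 to 1.34).

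ACAT2, which condenses acetyl-CoA before the HMG-CoA step, was at 46.3, 75.1, 71.8 and 49.9 CPM in B-gated cells. It was 1.62-fold (1.44 to 1.84) higher at 2 h and 1.55-fold (1.37 to 1.76) at 4 h. SC5D, a sterol desaturase late in the pathway, was at 26.4, 40.0, 37.9 and 30.5 CPM and passed 1.5-fold at 2 h, at 1.52 (1.29 to 1.79). LSS (lanosterol synthase) and DHCR7 (which reduces the direct precursor to cholesterol) passed it at 4 h, at 1.70 (1.00 to 2.96) and 1.62 (1.21 to 2.18), on 73 and 232 UMIs over the compared libraries.

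Other steps moved less. FDPS, which makes farnesyl diphosphate, was at 55.4, 55.7, 71.3 and 69.7 CPM in B-gated cells, and MVD, the last of the mevalonate enzymes, at 51.5, 65.2, 65.6 and 62.1 CPM. Their highest folds were 1.29 (1.14 to 1.45) and 1.27 (1.13 to 1.44). EBP, a sterol isomerase just before SC5D, went the other way, with 28.0, 14.8, 19.7 and 23.7 CPM. Its fold was 0.527 (0.431 to 0.645) at 2 h and 0.703 (0.582 to 0.851) at 4 h. Within this pathway EBP was thus at its lowest where 7 others were past 1.5-fold higher. HSD17B7 was also lowest at 2 h, at 1.46 CPM and a fold of 0.604 (0.299 to 1.22), but had only 37 UMIs and was not called.

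**Figure D2:**
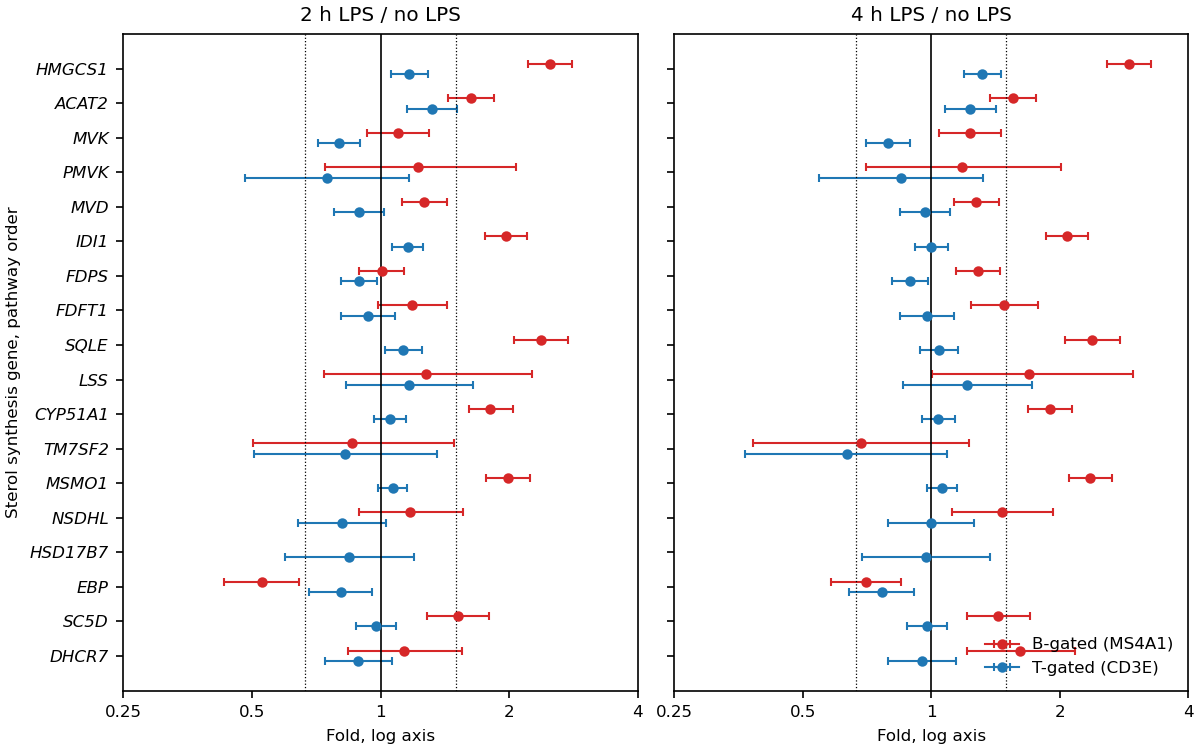
Fold of the sterol synthesis genes against no LPS at 2 h (left) and 4 h (right) on a log axis, in B-gated and T-gated cells, with 95% binomial counting intervals. The solid line marks a fold of 1 and the dotted lines 1.5-fold in either direction, and a gene under 50 UMIs has no point. HMGCS1, SQLE, MSMO1, IDI1 and CYP51A1 lie to the right in B-gated cells at both times, and the T-gated points lie within the dotted lines except TM7SF2 at 4 h (0.634).

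Between 4 h and 8 h the B-gated levels came down. Of 15 genes with enough UMIs, 5 were lower at 8 h than at 4 h (HMGCS1, MSMO1, IDI1, CYP51A1 and SQLE), beside 5.01% of all genes, and 0 were higher, beside 11.3%. Their folds ran from 0.535 (0.468 to 0.610) for HMGCS1 to 0.624 (0.527 to 0.736) for SQLE. FASN, ELOVL5 and FADS1 of fatty acid synthesis were higher at 8 h than at 4 h, at 1.60-fold (1.26 to 2.02), 1.51-fold (1.15 to 1.96) and 2.30-fold (1.32 to 3.96). ACACA of the same role went the other way in B-gated cells, from 4.54 CPM at 4 h to 2.29 CPM at 8 h. It was at 2.80 CPM there without LPS and 4.22 CPM at 2 h, a fold of 1.51 (0.90 to 2.61) on 74 UMIs.

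Some B-gated values of other genes moved over the same libraries. The summed level of 5 monocyte markers in B-gated cells was 278, 18.7, 22.9 and 134 CPM, and that of 5 further B cell markers was 1179, 1035, 884 and 909 CPM. The median UMI count of a B-gated cell was 3856, 4248, 4992 and 5410, and cells over 3000 genes, left out, were 3.20%, 3.04%, 5.16% and 11.95% of those passing the gate. Their part in the result was not tested beyond the following. With these cells included, 5, 6 and 4 sterol synthesis genes were higher at 2 h, 4 h and 8 h. In B-gated cells that also held a second B cell marker, 7, 9 and 2 were. The share of all genes past 1.5-fold is not given for these sets of cells, so the counts cannot be set beside a background.

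The level of SREBF2 itself (ENSBTAG00000014265), whose protein drives the sterol genes, was flat in B-gated cells, at 142, 139, 138 and 142 CPM. It was higher there than in T-gated cells (60.2, 58.3, 58.4 and 74.2 CPM) in 4 of 4 libraries, and the monocyte-gated cells had 36.0, 24.1, 26.9 and 47.9 CPM. SREBF1 was at 11.7, 9.10, 10.7 and 10.4 CPM in B-gated cells, and SCAP at 25.0, 21.9, 24.0 and 34.1 CPM, neither past 1.5-fold. INSIG1 was at 13.5, 20.9, 16.9 and 16.0 CPM in B-gated cells, 1.55-fold (1.23 to 1.96) higher at 2 h. INSIG2 was at 3.95, 2.03, 2.44 and 2.29 CPM, with a fold of 0.514 (0.291 to 0.900) at 2 h on 56 UMIs.

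In T-gated cells none of the 5 control genes passed 1.5-fold at any time. INSIG1 was at 23.9, 25.0, 27.6 and 22.4 CPM there, and SREBF1 was at 11.2, 13.7, 13.7 and 12.1 CPM. The T-gated sterol enzymes were similarly level. The counting interval of the fold of their sum included 1 at each time, and single genes moved within 1.5-fold apart from TM7SF2 and PMVK, which had 60 and 56 UMIs in those comparisons.

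Sterol synthesis genes were a smaller share of the UMIs in monocyte-gated cells, with 312, 221, 223 and 261 CPM in all. The sum was at 0.708 (0.653 to 0.767), 0.713 (0.628 to 0.808) and 0.838 (0.727 to 0.962) of no LPS. A smaller share need not mean fewer molecules per cell. Without LPS the median UMI count was 8293 in monocyte-gated, 4070 in T-gated and 3856 in B-gated cells. For 15 of the 18 genes the monocyte-gated level was below the T-gated one in all 4 libraries. ACAT2 (52.0, 52.6, 62.6 and 42.0 CPM) and PMVK (7.50, 2.62, 3.96 and 7.004 CPM) were above it in all 4.

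Of the 11 sterol synthesis genes with enough UMIs in monocyte-gated cells, 7 were lower at 2 h, beside 46.5% of all genes in these cells. At 4 h, 7 of 11 were lower, beside 23.9%, and at 8 h 3 of 11, beside 10.7%. None was higher at any of these times, beside 7.93%, 12.8% and 21.7%. The median log2 fold was −0.62, −0.89 and −0.31, and that of all genes −0.53, −0.15 and 0.11, so the 2 h value lay close to the shift of all genes. Scaling by edgeR's TMM factors moved all log2 folds of monocyte-gated cells by 0.43 at 2 h and −0.28 at 8 h. With it 1 gene was lower at 2 h and 6 at 8 h.

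CYP51A1 was at 27.0, 13.9, 7.92 and 24.5 CPM in monocyte-gated cells, with a fold of 0.515 (0.372 to 0.702) at 2 h and 0.294 (0.139 to 0.552) at 4 h, the latter on 10 UMIs at 4 h. SC5D was at 32.2, 16.2, 12.7 and 22.2 CPM, with folds of 0.505 (0.375 to 0.672) and 0.394 (0.221 to 0.654). IDI1 was at 52.6, 34.6, 26.9 and 28.0 CPM, with folds of 0.657 (0.534 to 0.803), 0.512 (0.349 to 0.728) and 0.532 (0.337 to 0.805), but with no upper limit on genes per cell its log2 fold at 8 h reversed to 0.022. These genes were highest without LPS, where the B-gated cells had their lowest level of each.

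INSIG1 (ENSBTAG00000001592), the brake on SREBP processing, stood out among the control genes in monocyte-gated cells. It was at 50.3, 123, 56.2 and 35.0 CPM, 2.45-fold (2.13 to 2.82) above no LPS at 2 h and 1.12-fold (0.85 to 1.45) at 4 h. The 2 h library was thus far above the other 3. INSIG1 was higher in monocyte-gated than in T-gated and B-gated cells in all 4 libraries.

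ABCA1 (ENSBTAG00000020661), the pump that exports cholesterol to lipoproteins, was at 51.5, 84.6, 140 and 96.9 CPM in monocyte-gated cells. It was 1.64-fold (1.41 to 1.92) above no LPS at 2 h, 2.72-fold (2.26 to 3.27) at 4 h and 1.88-fold (1.46 to 2.40) at 8 h. Over all cells ABCA1 was instead at 15.1, 14.2, 13.0 and 12.4 CPM, with folds of 0.94 (0.84 to 1.05), 0.86 (0.76 to 0.97) and 0.83 (0.70 to 0.97). Monocyte-gated cells gave 61.6%, 47.6%, 34.0% and 40.1% of all ABCA1 UMIs.

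NR1H3 (ENSBTAG00000010681), the liver X receptor alpha, was at 47.0, 14.9, 21.4 and 37.4 CPM in monocyte-gated cells. Its fold was 0.317 (0.235 to 0.422) at 2 h, 0.455 (0.295 to 0.674) at 4 h and 0.795 (0.535 to 1.14) at 8 h. In T-gated cells it was at 10.8, 6.98, 6.21 and 8.66 CPM, with folds of 0.648 (0.516 to 0.813) and 0.576 (0.452 to 0.733) at 2 h and 4 h. Over all cells it was at 15.9, 6.18, 5.23 and 9.91 CPM, at 0.388 (0.337 to 0.447) of no LPS at 2 h. ABCA1, one of the genes that liver X receptors switch on, was thus highest in monocyte-gated cells at 4 h, where NR1H3 was below its no LPS level.

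NR1H2, the liver X receptor beta, was at 42.5, 47.4, 65.7 and 37.4 CPM in monocyte-gated cells and 1.55-fold (1.197 to 1.98) higher at 4 h. It was between 71.5 and 87.2 CPM in T-gated and B-gated cells. MYLIP, a ubiquitin ligase that limits lipoprotein uptake, was at 3.46, 6.81, 13.5 and 11.7 CPM in monocyte-gated cells, and only its 2 h comparison had enough UMIs, at 1.97-fold (1.09 to 3.58). ABCG1, the second export pump, was at 1.79, 2.99, 3.51 and 2.34 CPM over all cells. It was 1.67-fold (1.24 to 2.26) higher at 2 h and 1.96-fold (1.46 to 2.65) at 4 h. STARD4, a sterol carrier, had 12 to 29 UMIs in a library and was not compared with no LPS.

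The monocyte-gated cells changed in other ways too. The summed level of 5 monocyte markers in them was 11220, 6136, 6965 and 11508 CPM, that of the granulocyte markers CSF3R and CXCR2 was 11.4, 49.5, 120 and 51.4 CPM, and the median UMI count of a cell was 8293, 10468.5, 5906 and 1550.5. Over all cells the monocyte markers were at 2671, 668, 328 and 911 CPM. In T-gated cells, where NR1H3 was lower at 2 h and 4 h, they were at 41.6, 14.9, 13.0 and 83.7 CPM. The part of these shifts in the monocyte-gated and NR1H3 values was not tested.

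**Figure D3:**
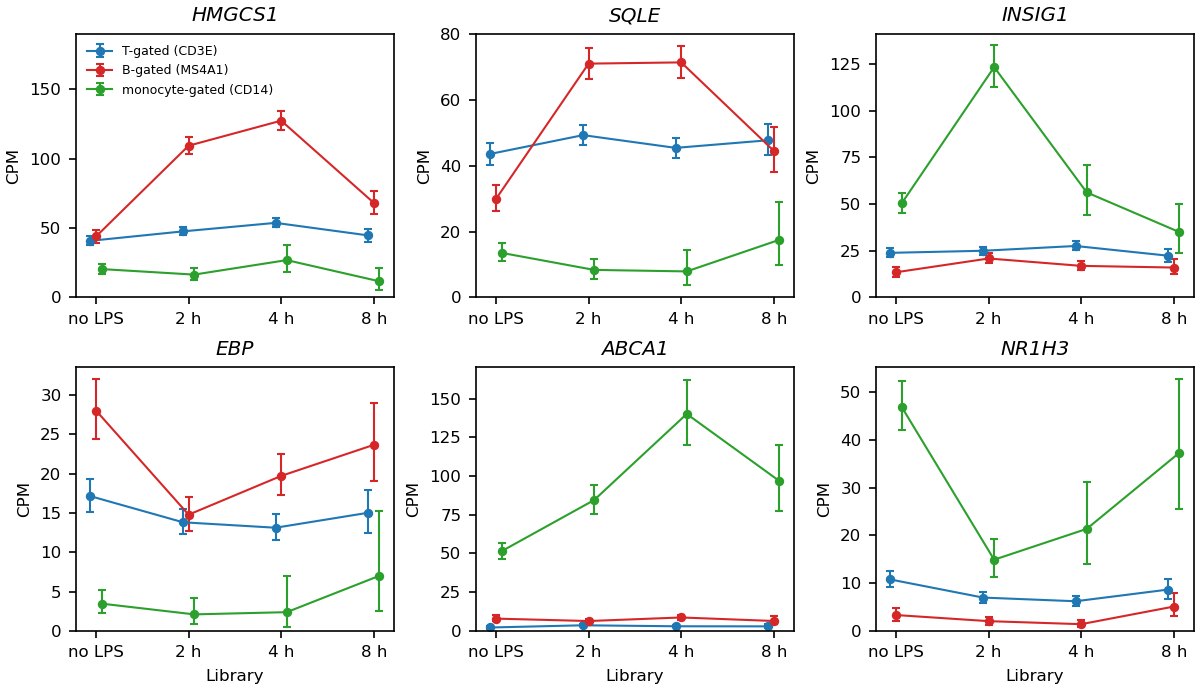
Level of 6 genes in CPM in the 4 libraries, in T-gated, B-gated and monocyte-gated cells, with 95% Poisson counting intervals and a separate axis for each gene. HMGCS1 and SQLE were highest in B-gated cells at 2 h and 4 h, INSIG1 in monocyte-gated cells at 2 h (123 CPM) and ABCA1 in monocyte-gated cells at 4 h (140 CPM).

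In fatty acid synthesis the later library differed most. FASN, the synthase that builds palmitate, was at 17.7, 18.4, 21.6 and 28.5 CPM over all cells, 1.60-fold (1.42 to 1.81) higher at 8 h. In B-gated cells it was at 15.5, 14.7, 18.3 and 29.3 CPM (1.88-fold, 1.45 to 2.45, at 8 h), and in T-gated cells at 21.8, 23.2, 23.8 and 29.2 CPM (1.34-fold, 1.13 to 1.59). The 8 h library was the highest in both classes.

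ACLY, which makes cytosolic acetyl-CoA from citrate for both pathways, was at 27.5, 26.5, 30.4 and 36.1 CPM over all cells, 1.32-fold (1.19 to 1.45) higher at 8 h. ACACA, which makes malonyl-CoA, had 47 to 189 UMIs in a library and was at 2.83, 3.95, 3.59 and 2.82 CPM. SCD, which puts the first double bond into stearate, was at 2.23, 2.59, 3.39 and 3.48 CPM and passed 1.5-fold at 4 h (1.52, 1.15 to 2.01) and 8 h (1.56, 1.10 to 2.20). FADS1, a desaturase of polyunsaturated fatty acids, was at 1.64, 1.36, 1.49 and 2.94 CPM and 1.80-fold (1.21 to 2.65) higher at 8 h. At 8 h the TMM factors moved all log2 folds over all cells by −0.13, and with them 1 of 35 genes was past 1.5-fold higher, in place of 5.

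In monocyte-gated cells the fatty acid synthesis sum was 43.5, 40.6, 68.9 and 66.5 CPM, 1.58-fold (1.23 to 2.02) higher at 4 h. FASN was at 12.4, 5.50, 28.5 and 17.5 CPM, with folds of 0.443 (0.261 to 0.721) at 2 h and 2.30 (1.51 to 3.43) at 4 h. The 4 h value rested on 36 UMIs, and with no upper limit on genes per cell its log2 fold was 0.52 in place of 1.202. ELOVL5, an elongase of polyunsaturated fatty acids, was at 17.4, 23.6, 31.7 and 24.5 CPM and 1.82-fold (1.24 to 2.62) higher at 4 h.

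FADS2, the desaturase that acts together with FADS1, was unevenly spread over the classes. T-gated cells had 0 of its UMIs in all 4 libraries, which allows levels of up to 0.197, 0.138, 0.153 and 0.361 CPM. B-gated cells had 17, 20, 11 and 9 of the 25, 34, 16 and 14 UMIs. Monocyte-gated cells gave 4%, 26.5%, 0% and 0% of them, and at 2 h they were at 2.36 CPM against 1.62 CPM in B-gated cells. FADS1, ELOVL5 and ELOVL6 were also higher in B-gated than in T-gated cells in 4 of 4 libraries. ELOVL5 was higher still in monocyte-gated cells in 3 of 4, and FADS1 and ELOVL6 in 0.

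A list of 25 other genes of lipid handling was counted for comparison. Over all cells 0, 0 and 1 of 23 were higher, beside 4.76%, 7.31% and 8.51% of all genes, and 7, 8 and 7 lower at 2 h, 4 h and 8 h, beside 10.4%, 13.1% and 8.87%. In B-gated cells 1 of 20, 3 of 20 and 5 of 19 were higher, beside 7.89%, 9.04% and 7.18%, and 2, 2 and 0 lower, beside 15%, 17.4% and 7.15%. TMEM97, a sterol-regulated gene, was the one higher at 2 h and was also higher at 4 h, and it was named after its values were seen. In T-gated cells 0, 2 and 1 of 22 were higher, beside 2.79%, 4.56% and 4.70%, and 2, 0 and 1 lower, beside 4.12%, 5.86% and 2.80%. In monocyte-gated cells 3 of 17, 2 of 16 and 4 of 16 were higher, beside 7.93%, 12.8% and 21.7%, and 9, 7 and 4 lower, beside 46.5%, 23.9% and 10.7%.

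The scATAC-seq tables count DNA fragments from open chromatin per gene and nucleus barcode, by a rule that is not given in the sources used here. They were scaled to CPM like the UMIs and held 975012, 30250143, 26837579 and 11957904 counts, so the no LPS library was the shallowest by far. The no LPS and 2 h libraries shared 228 barcodes, 7.31% of the no LPS barcodes, and no other pair shared more than 0.993%. At 2 h the shared barcodes had a median of 21808.5 counts against 4863.5 for the others and held 18.1% of the counts. Most values were even numbers (88.7% to 93.8%), so intervals were computed on halved counts. Of the 37 genes, 34 were listed in every library and NSDHL, SCD and STARD4 were not. Nuclei were not divided into classes.

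None of the 17 sterol synthesis genes listed there passed 1.5-fold in accessibility at 2 h or 4 h against no LPS, and TM7SF2 was higher at 8 h (1.51-fold, 1.17 to 1.99). Without the shared barcodes described above TM7SF2 passed it at 2 h too, at 1.52-fold (1.16 to 2.04) in place of 1.44-fold (1.11 to 1.89). HMGCS1 was at 276, 221, 225 and 270 CPM and SQLE at 137, 145, 142 and 149. The median log2 fold of the 17 was −0.04, 0.04 and 0.04, and that of all genes −0.02, −0.02 and −0.01. Between the deeper libraries it was 0.04 at 4 h and 0.10 at 8 h against 2 h.

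Over all roles, 2 of 34 genes were higher and 2 lower in accessibility at 2 h, beside 17.3% and 14.6% of all genes. The same counts, 2 and 2, were found at 4 h, beside 15.7% and 13.2%, and 1 of 33 was higher and 0 lower at 8 h, beside 10.3% and 13.9%. Without the shared barcodes 2, 1 and 1 genes were higher and 2, 2 and 1 lower at the 3 times. INSIG1 was at 154, 77.7, 85.1 and 109 CPM, at 0.50 (0.40 to 0.65) of no LPS at 2 h and 0.48 (0.38 to 0.61) without the shared barcodes. INSIG2 was at 119, 57.1, 63.9 and 79.7, at 0.48 (0.37 to 0.64) and 0.47 (0.36 to 0.63). Both were highest in the no LPS library.

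ABCA1 was at 32.8 CPM without LPS, 52.2 CPM at 2 h, 50.0045 CPM at 4 h and 31.6 CPM at 8 h, with folds of 1.59 (0.97 to 2.80) at 2 h and 1.52 (0.93 to 2.68) at 4 h on 32 counts without LPS. Without the shared barcodes it did not pass 1.5-fold, and at 2 h TM7SF2 and FADS2 were the genes called higher. FADS2 had 0, 653, 572 and 15 counts, which makes it at least 3.51-fold higher at 2 h and at least 3.46-fold higher at 4 h against a floor of 3 halved counts (6 counts) without LPS. The libraries also differed in the number of genes listed, at 11658, 13821, 13255 and 11573. FADS2 was near 0 in those with the shorter lists, and the part of this difference in its values was not tested. Against 2 h, 0 of 34 genes were higher and 0 lower at 4 h, beside 1.34% and 4.38%. At 8 h against 2 h, 0 were higher beside 3.33%, and FADS1, FADS2 and ABCA1 were lower beside 14.5%, at 0.60 (0.49 to 0.73), 0.058 (0.024 to 0.118) and 0.61 (0.51 to 0.71).

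**Figure D4:**
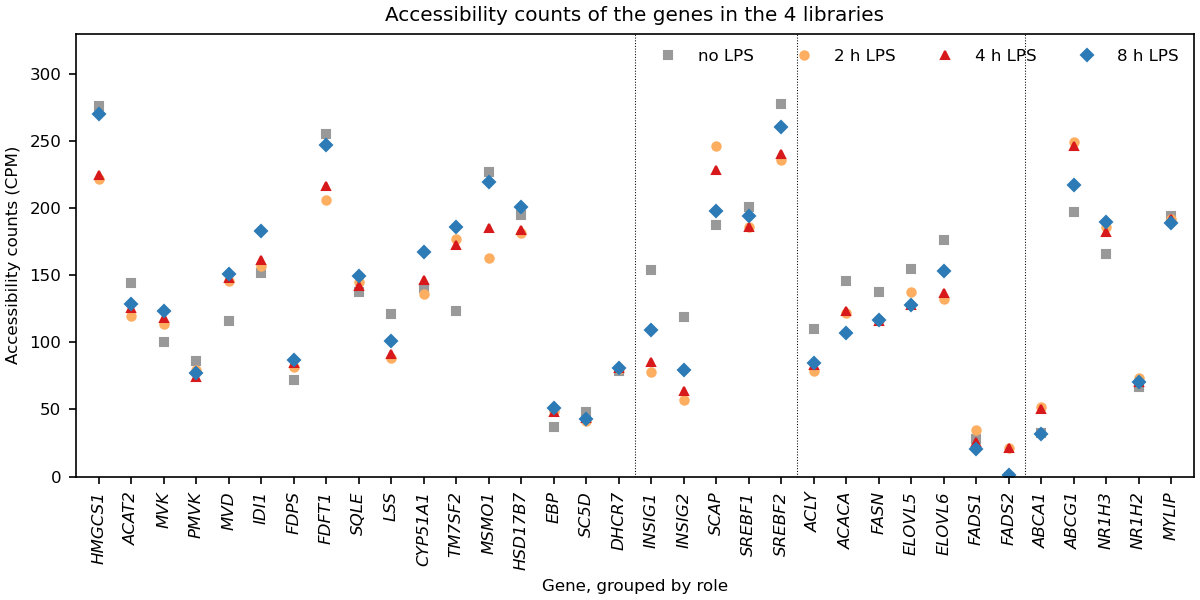
Accessibility in CPM of the 34 listed genes in the 4 scATAC-seq libraries, grouped by role and divided by dotted lines. Each symbol is a single library, and no interval is drawn. Most genes lie within a narrow band across the libraries, while INSIG1 and INSIG2 are highest without LPS (154 and 119) and FADS2 is near 0 without LPS and at 8 h.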

How the data were processed

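PBMCs from pooled blood of 4 animals were profiled in 4 scRNA-seq and 4 scATAC-seq libraries, grouped by the sample titles. The scRNA-seq files are UMI counts of each gene in each cell as deposited, which the authors made against ARS-UCD1.2 using Cell Ranger and did not normalize. The scATAC-seq files, as deposited, are counts of each gene in each nucleus, also not normalized.

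After the study's limits, cells were kept if they had 200 to 3000 genes, 200 or more UMIs (its text reads less than 200, taken here as a minimum) and a mitochondrial share (13 genes) under 20%. Of 8490, 10429, 7977 and 3860 barcodes, these limits leave more cells in each library than the study states, and the difference was not resolved. All scATAC-seq barcodes were kept. Sums of UMIs over the cells of a library, or of a class in it, were divided by their total, without a pseudocount. As each treatment had 1 library, results are folds with counting intervals, and no p-value was computed. The fold step recovered 3-fold changes of 200 well-counted genes in data simulated with counting error only. The simulation did not cover changes near 1.5-fold or differences between libraries. All 37 matched genes could be named. Those past 1.5-fold over all cells, the control genes and NR1H3 were to be given in full. For PMVK, LSS and TM7SF2 the levels over all cells are not given.

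Alternatives were TMM factors of edgeR 4.0.16 and size factors of DESeq2 1.42.0 (scaling only), other limits on cells, genes and gates, a pseudocount of 1 CPM, equal weight per cell and fixed class shares. The gate with a second marker, the removal of shared scATAC-seq barcodes and the division of B-gated cells by CD83 were added after the data were seen. The genes and lists were chosen with earlier results of these data known. Promoter sequences were not analysed here. Python 3.11.15, numpy 2.4.6, scipy 1.17.1, pandas 2.3.3 and R 4.3.3 were used.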

Additional observations from a re-analysis of the deposited data

Results flagged for a closer look

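For 6 sterol synthesis genes the fold against no LPS passed 1.5 upward in B-gated cells and downward in monocyte-gated cells at the same time. Of all genes, 7.89%, 9.04% and 7.18% were higher in B-gated cells at 2 h, 4 h and 8 h. In monocyte-gated cells 46.5%, 23.9% and 10.7% of all genes were lower. The share of all genes with both is not given here. The difference between the classes was not tested, since each treatment had 1 library. At 2 h the B-gated and monocyte-gated folds were 2.37 and 0.618 for SQLE, 1.99 and 0.648 for MSMO1, 1.96 and 0.657 for IDI1, 1.81 and 0.515 for CYP51A1, and 1.52 and 0.505 for SC5D. At 4 h they were 2.38 and 0.585 for SQLE, 2.08 and 0.512 for IDI1, and 1.89 and 0.294 for CYP51A1. At 8 h they were 1.55 and 0.570 for HMGCS1. In monocyte-gated cells the folds of SQLE and CYP51A1 at 4 h and of HMGCS1 at 8 h each rested on 10 UMIs in the LPS library, and at 2 h 46.5% of all genes in these cells were past 1.5-fold lower. With TMM factors none of the 5 monocyte-gated folds at 2 h passed 1.5-fold, with log2 folds between −0.55 and −0.18. With no upper limit on genes per cell SQLE, MSMO1 and IDI1 at 2 h did not pass it either, and the monocyte-gated log2 fold of HMGCS1 at 8 h reversed to 0.35.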

How the results depend on the processing

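Each treatment had 1 library, so no value has a replicate check. No paired analysis was possible because no group had more than 1 library. Depth limits the NK-gated values most (262680 to 518861 UMIs per library), then the monocyte-gated ones (856677 UMIs at 8 h), and those without LPS in scATAC-seq. Counts of genes called under the alternatives are given without the share of all genes, so they cannot be set beside a background. A median kept its reading if it stayed between the medians of the lower and upper single-gene interval bounds. This band is not an interval of the median itself. A count kept it within 1.5 times of the main one, and a single gene within its counting interval. Of the alternative values, 278 of the main ones kept their reading and 43 moved. For single genes 606 kept it, 57 moved and 3 reversed, and the cause was not tested.

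Over all cells at 2 h, 1 gene was higher and 1 lower with a pseudocount of 1 CPM or with no upper limit on genes, and 0 were higher with equal weight per cell. At 4 h, 1 was lower with the pseudocount, 1 was higher with no upper limit, and 1 was higher and 1 lower with equal weight. With fixed class shares 1 was lower, and the sterol synthesis median was 0.11. At 8 h, 1 was higher with TMM factors, DESeq2 size factors, at least 200 UMIs or the pseudocount, and 1 was lower with no upper limit. Equal weight left 3 higher and 0 lower, and fixed class shares 3 higher and 1 lower.

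Among B-gated sterol synthesis genes, the numbers higher at 2 h and 4 h stayed within 1.5 times under all alternatives run. The medians stayed within the band described above, which is as wide as the interval of a typical single gene. With no minimum of UMIs 2 were lower at 2 h, and 2 were higher and 1 lower at 8 h. At 8 h 4 were higher with no upper limit on genes and 2 with a second marker.

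Among monocyte-gated sterol synthesis genes, TMM factors gave a median of −0.19 and 1 lower gene at 2 h, and 6 lower at 8 h. With no upper limit on genes 1 was higher and 3 lower at 2 h, 1 was higher at 4 h, and 2 were higher and 0 lower at 8 h. There the log2 folds of HMGCS1 (0.35), IDI1 (0.022) and FDFT1 (0.16) reversed. With no minimum of UMIs 4 were higher at 4 h and 7 at 8 h. At 8 h 8 were lower with a gate of 2 UMIs and 7 in cells with at least 2000 UMIs.

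In accessibility against no LPS, barcodes with at least 500 counts (352 of 3121 without LPS) gave 5 higher genes at 2 h, 4 at 4 h, and 5 higher and 1 lower at 8 h. The share of all genes in this set is not given here. With all barcodes, 17.3%, 15.7% and 10.3% of all genes were higher at the 3 times. Without the shared barcodes 1 was higher at 4 h and 1 lower at 8 h.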

Other observations

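B-gated cells were divided by CD83, a surface protein of activated B cells, after the data were seen. CD83 itself was at 194, 1244, 718 and 374 CPM in B-gated cells (no LPS, 2 h, 4 h and 8 h), and 509, 1688, 1300 and 346 of them had a CD83 UMI. In these the sterol synthesis sum was 633, 900, 1011 and 708 CPM, or 1.42-fold (1.35 to 1.499), 1.60-fold (1.52 to 1.68) and 1.12-fold (1.05 to 1.195) above no LPS. In B-gated cells without a CD83 UMI it was 446, 510, 523 and 470 CPM, or 1.14-fold (1.07 to 1.22), 1.17-fold (1.10 to 1.25) and 1.05-fold (0.96 to 1.15). The sum was higher in the cells with CD83 in 4 of 4 libraries, the one without LPS included. Their median UMI count was also higher, at 4486 against 3686 without LPS and 5623 against 4225 at 4 h, and its part in the difference was not tested.

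At 4 h SQLE was 2.40-fold (1.94 to 3.01) above no LPS in B-gated cells with CD83 and 1.29-fold (0.99 to 1.67) in those without. For CYP51A1 the folds were 1.92 (1.61 to 2.29) and 1.07 (0.86 to 1.33). HMGCS1 was higher in both, at 2.37-fold (2.02 to 2.79) and 1.64-fold (1.31 to 2.04). EBP, called lower in B-gated cells at 2 h, was at 0.512 (0.367 to 0.719) of no LPS at 2 h in those with CD83 and 0.854 (0.645 to 1.12) in those without. No difference between these groups of cells was tested.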
